A study of Mus musculus with 6 samples.

Results

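Synaptic adhesion molecules are the surface proteins that join the presynaptic and the postsynaptic membrane, and 35 of their genes were followed in cultured mouse neurons. They comprised Nrxn2 and Nrxn3 (neurexins), Nlgn1 and Nlgn3 (neuroligins), Lrrtm1 to Lrrtm4, 5 Slitrk genes, 3 Flrt genes, the latrophilins Adgrl1 to Adgrl3, the receptor phosphatases Ptprd, Ptprf and Ptprs, Cadm1 to Cadm4 (SynCAMs), Il1rapl1, 5 Lrfn genes (SALMs) and the calsyntenins Clstn1 to Clstn3. Genes were chosen by name, with the condition that the deposited log2 value reached about the log2 of 10 in at least 3 libraries. All 35 met it, among 15059 of 47593 symbols that did so. None lay near that minimum, since the lowest value of any member in any library was 7.496 (Lrrtm4) and the highest 13.58 (Clstn1).

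The cells were wild-type primary neurons from hippocampus, grown in Neurobasal with B27 and GlutaMAX. From culture day 10 they received either microglial apoE particles (3 libraries) or astrocytic apoE particles (3 libraries), both at 6 µg/mL for 24 h. ApoE is a lipid transport protein made by glia, and the comparison asks whether its cellular source matters to neuronal transcripts. Untreated neurons were not analysed here, and every direction given is that of microglial relative to astrocytic apoE. The labels do not say that the libraries of a group came from separate cultures, so p-values measure the spread between these libraries, which may be technical.

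Presynaptic neurexins and LAR-type receptor phosphatases act as hubs that bind many postsynaptic partners. Neurexins bind neuroligins and LRRTM proteins, whereas the LAR-type phosphatases bind SLITRK, SALM and IL1RAPL1 proteins. FLRT proteins pair with latrophilins, which are adhesion G protein-coupled receptors, and SynCAMs bind each other across the cleft. In hippocampal neurons such proteins recruit vesicle release sites on the axon side and receptors on the dendrite side, and they help set whether a contact becomes excitatory or inhibitory.

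The deposited values are log2 values that place all libraries on 1 scale, and read depth is unknown. Their linear values (2 to the power of the value) summed to between 18060473 and 18337624 in a library, a total that counts no reads. The 12 neuron markers were all detected, with 0 higher and 5 lower, and their linear values summed to between 86391 and 87063 in the microglial apoE libraries, against 89655 to 90748 in the astrocytic apoE libraries. Astrocyte markers were also abundant, with sums of 69965 to 70468 in the microglial and 83150 to 83755 in the astrocytic apoE libraries, and 11 of 14 tested fell while 1 rose. Of 12 dividing cell markers 11 fell, 9 of 11 inhibitory neuron markers rose, and of 10 excitatory neuron markers 1 rose and 4 fell. Microglia markers summed to only 719.2 to 721.9 in the microglial and 685.8 to 704.8 in the astrocytic apoE libraries (1 of 11 tested rose), with P2ry12, Tmem119 and Trem2 under the minimum for testing. Of 10 oligodendrocyte lineage markers 1 rose and 3 fell, and of 7 endothelial and fibroblast markers 2 rose. By the same test 13.0% of all 15055 tested genes rose and 11.8% fell. No marker of these lists was at 0 in every library. Replicates departed from their group means along base composition, astrocytic replicates 3 and 1 the most, and the counts without each library are given with the values by G+C content. In bulk RNA, fewer cells of a type and less RNA per cell cannot be told apart, and the part of these shifts in the values below was not tested.

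Levels of the members spanned a wide range, and each member's level was close between the groups. Per kilobase of exon, Clstn1 stood highest, at 11.31 with microglial and 11.28 with astrocytic apoE on the log2 scale. Its protein links kinesin to cargo vesicles in axons. Cadm4 (11.09 with microglial, 11.11 with astrocytic apoE), Cadm3 (10.23 and 10.27) and Lrfn4 (9.90 and 9.93) followed. Il1rapl1, whose human counterpart is an X-linked intellectual disability gene, was lowest at 4.51 with microglial and 4.57 with astrocytic apoE, and Lrrtm4 was next to lowest at 4.91 and 4.93. The distance between the top and the bottom member was 6.71 on the log2 scale with astrocytic apoE, far beyond any difference between the groups.

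**Figure D1:**
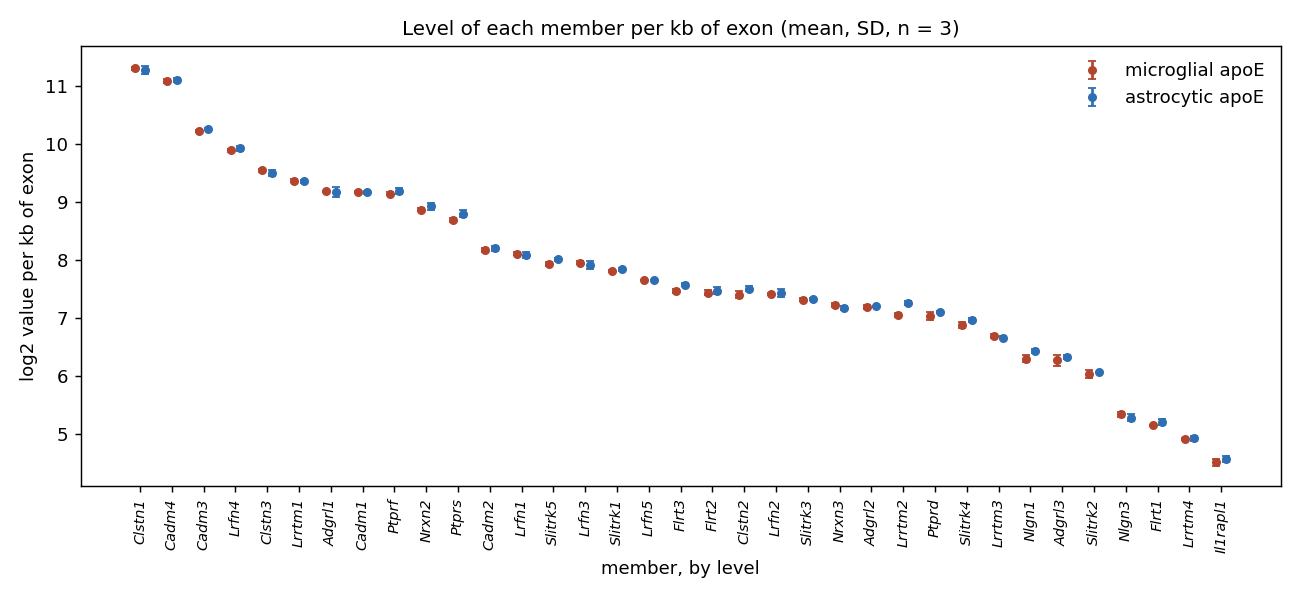
Level of the 35 members per kilobase of exon (log2, vertical axis), ordered from high to low, as mean and SD of 3 libraries with microglial apoE (red) and 3 with astrocytic apoE (blue). Clstn1 is highest near 11.3, Il1rapl1 is lowest near 4.5, and the symbols of both groups nearly coincide for every member.

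Several neighbours in this order differed by less than the sum of their SDs with astrocytic apoE. These were Ptprf, Adgrl1 and Cadm1 at 9.19, 9.17 and 9.17 per kilobase, Clstn2, Flrt2 and Lrfn2 at 7.51, 7.47 and 7.43, and Adgrl2 and Nrxn3 at 7.20 and 7.18. The pairs Lrfn1 and Slitrk5 (8.08 and 8.01), Lrfn3 and Slitrk1 (7.91 and 7.84) and Nlgn3 and Flrt1 (5.29 and 5.21) were likewise not separated. Within families the spread was wide: with astrocytic apoE, LRRTM genes ran from 4.93 (Lrrtm4) to 9.36 (Lrrtm1), and SynCAMs from 8.20 (Cadm2) to 11.11 (Cadm4). These per-length levels use the union of annotated exons of each gene, so a member with long unused exons is understated.

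Few members passed the test, and the differences were small. Of the 35 members 6 fell and 0 rose (limma, Benjamini-Hochberg adjusted p under 0.05 over 15055 tested genes). The 6 were Lrrtm2, Nlgn1, Flrt3, Ptprs, Clstn2 and Slitrk4. At an unadjusted p under 0.05 the counts were 8 and 0. After adjustment 24.9% of all tested genes were called, 13.0% higher and 11.8% lower, against 17.1% of the members. The unadjusted share over all genes was not taken, but it cannot be below 24.9%. All calls among the members were in the lower direction. The order of the called shares depended on the settings: with the G+C and length trend removed 31.4% of the members and 30.1% of all genes were called, and with no filter on low values 14.3% and 13.3%. Over all genes the calls were 1962 higher and 1780 lower; this split moved to 1478 and 2765 with median centring and to 2516 and 1318 with equal sums of linear values, and no member was called higher under either.

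The median log2 fold change of the members was -0.03, beside -0.0006 over all tested genes, and 24 members (68.6%) lay below 0, beside 50.4% of all genes. The median size without sign was 0.040 for the members and 0.041 for all tested genes. A size under 0.1 was found for 30 members (85.7%) and for 82.5% of all genes. In 8 members the 3 microglial apoE libraries did not overlap the 3 astrocytic apoE libraries, always with microglial apoE below, where 38.9% of all genes did not overlap, 20.1% with microglial apoE above and 18.8% with it below.

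**Figure D2:**
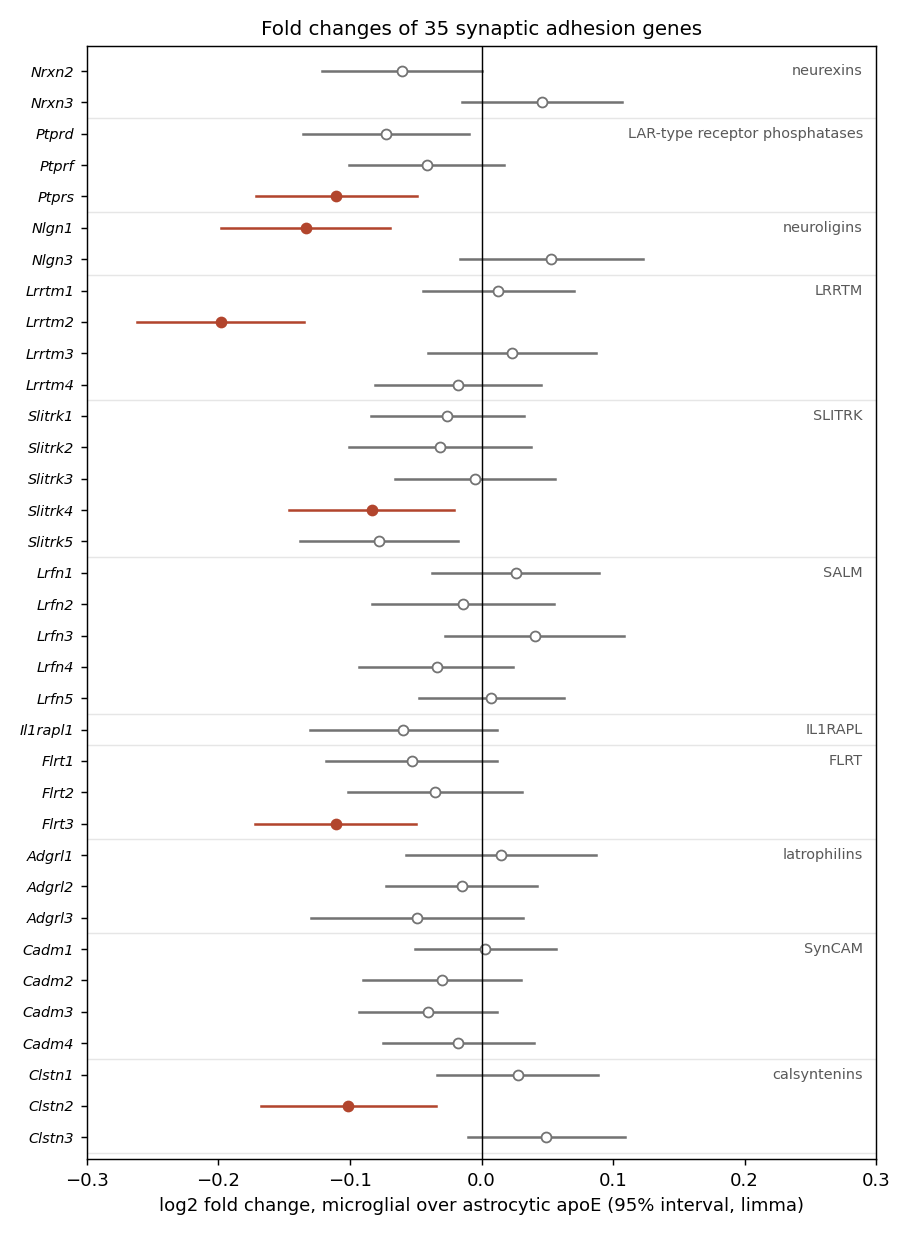
Log2 fold change (horizontal axis, microglial over astrocytic apoE) of each member with its 95% interval from limma, grouped by family. Filled red symbols mark the 6 members that fell, open grey symbols the 29 that did not pass, and the interval of Lrrtm2 reaches furthest, to -0.26.

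Promoter windows were listed by RefSeq (GRCm38.p6; 250 bases before to 50 after the start) for 26 members, among them 4 that fell, and 7 motifs were searched on both strands in the first window of each gene. The cyclic AMP response element TGACGTCA, to which CREB-family factors bind, was present in 3 of 26 members (11.5%) and in 1.9% of 27025 promoter windows. The GC box GGGCGG was in 42.3% of the members and 35.9% of all windows, the E-box CACGTG in 15.4% and 7.2%, the NRF1-type motif (GCGCA, any base, GCGC) in 3.8% and 4.8%, the interferon response-type repeat (GAAA, any pair of bases, GAAA) in 3.8% and 3.5%, the TATA box TATAAA in 7.7% and 14.2%, and the AP-1 motif TGANTCA in 3.8% and 7.9%. Members had a median of 61.0% G+C in these windows, against 52.7% over all windows. The 3 windows with TGACGTCA are shown whatever the call of the member. These windows belong to a pair of members that fell and to a relative that did not pass. They are Ptprs (chr17:56476431-56476730), Clstn2 (chr9:98033118-98033417) and Clstn3 (chr6:124464735-124465034), all on the minus strand and written 5′ to 3′. Capitals mark every match of a searched motif on either strand, and no matches overlap.
Ptprs: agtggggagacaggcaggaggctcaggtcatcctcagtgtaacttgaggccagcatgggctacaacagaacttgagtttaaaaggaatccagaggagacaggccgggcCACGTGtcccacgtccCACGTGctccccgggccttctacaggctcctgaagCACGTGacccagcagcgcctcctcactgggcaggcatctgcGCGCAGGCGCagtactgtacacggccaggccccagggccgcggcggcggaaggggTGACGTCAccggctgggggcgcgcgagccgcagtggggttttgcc
Clstn2: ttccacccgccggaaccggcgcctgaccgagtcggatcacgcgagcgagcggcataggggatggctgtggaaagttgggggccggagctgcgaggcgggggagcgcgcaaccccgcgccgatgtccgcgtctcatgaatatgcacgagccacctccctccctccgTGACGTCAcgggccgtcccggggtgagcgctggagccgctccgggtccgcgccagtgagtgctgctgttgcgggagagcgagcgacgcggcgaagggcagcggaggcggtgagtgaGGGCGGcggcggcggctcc
Clstn3: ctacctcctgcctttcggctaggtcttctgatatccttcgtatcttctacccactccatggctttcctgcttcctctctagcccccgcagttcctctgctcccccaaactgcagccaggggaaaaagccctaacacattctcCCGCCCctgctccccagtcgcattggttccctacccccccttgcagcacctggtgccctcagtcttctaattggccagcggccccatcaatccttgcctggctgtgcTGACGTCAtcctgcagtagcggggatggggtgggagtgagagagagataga
TGACGTCA begins 85 bases before the start in Clstn2, 1 base before it in Clstn3, and after it in Ptprs, which also holds 3 copies of CACGTG. The windows of Nlgn1 and Flrt3 held none of the 7 motifs. A match describes letters only and is no evidence of binding.

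Lrrtm2 showed the largest difference of the 35 members. It encodes a postsynaptic leucine-rich repeat protein that binds neurexins and helps hold AMPA receptors at excitatory synapses (GRCm38 chromosome 18, 35209003 to 35215024, minus strand). Its log2 value was 9.67, 9.61 and 9.67 with microglial apoE and 9.89, 9.85 and 9.81 with astrocytic apoE. Every microglial apoE library was below every astrocytic apoE library. The log2 fold change was -0.20 ± 0.031 (SE; fold 0.872, limma adjusted p = 2.3e-05).

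The other LRRTM genes did not pass. Lrrtm1, the family member at the highest level, stood at 10.97 ± 0.02 with microglial and 10.96 ± 0.03 with astrocytic apoE (SD, n = 3), a log2 fold change of 0.01 with a 95% interval of -0.04 to 0.07. Lrrtm3 had 0.02 (-0.04 to 0.09) and Lrrtm4, a receptor of glypicans, had -0.02 (-0.08 to 0.05). Set against Lrrtm1 in the same library, Lrrtm2 was at -1.328, -1.364 and -1.275 with microglial apoE and at -1.064, -1.087 and -1.182 with astrocytic apoE. This removes any overall scaling between libraries, but not a trend along G+C content (38.4% in Lrrtm2, 54.7% in Lrrtm1). The groups did not overlap (exact permutation test, two-sided p = 0.1, the smallest that 3 against 3 libraries allow).

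Lrrtm2 lies inside the alpha-catenin gene Ctnna1, on the opposite strand, and their exons share 95 bases. Ctnna1, added after its values were seen, rose: it was at 11.19 ± 0.02 with microglial and 11.05 ± 0.01 with astrocytic apoE (SD, n = 3; log2 fold change 0.14 ± 0.027 SE, limma adjusted p = 0.00029). Host and nested gene thus moved in opposite directions. The strand setting of the counting is not given in the sources used here, so reads in the shared bases cannot be assigned. The division of reads between the genes was not tested.

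Nlgn1 encodes a neuroligin of excitatory synapses and a main postsynaptic ligand of neurexins (chromosome 3, 25426215 to 26332460). Its log2 value was 10.089, 9.985 and 10.067 with microglial apoE and 10.185, 10.207 and 10.151 with astrocytic apoE. No library of one group entered the range of the other, and the log2 fold change was -0.13 ± 0.031 (SE; fold 0.911, limma adjusted p = 0.0023). Nlgn3, its X-linked relative, was at 8.551 ± 0.037 with microglial and 8.498 ± 0.061 with astrocytic apoE (SD, n = 3) and did not pass (0.05, 95% interval -0.02 to 0.12). The difference Nlgn1 minus Nlgn3 within a library was 1.496 ± 0.073 with microglial and 1.683 ± 0.082 with astrocytic apoE (SD, n = 3, no overlap, exact permutation p = 0.1). These genes also differ in G+C content (38.9% in Nlgn1, 49.3% in Nlgn3).

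The neurexins themselves did not pass. Nrxn2 stood at 12.68, 12.65 and 12.63 with microglial apoE and at 12.68, 12.68 and 12.78 with astrocytic apoE (log2 fold change -0.06, 95% interval -0.12 to 0.0005, adjusted p = 0.14). The third astrocytic apoE library alone was clearly higher. Nrxn2 was called lower with median centring (adjusted p = 0.042) and with the G+C and length trend removed (adjusted p = 0.0021). Without astrocytic replicate 3 its log2 fold change was only -0.025 (limma adjusted p = 0.48), and with equal sums of linear values it was -0.047 (adjusted p = 0.29). Nrxn3 had a log2 fold change of 0.05 (-0.01 to 0.11).

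Among the presynaptic LAR-type phosphatases, Ptprs fell. It encodes PTP-sigma, a receptor of heparan and chondroitin sulphate proteoglycans as well as of postsynaptic partners (chromosome 17, 56412426 to 56476483). Its log2 value was 12.62, 12.56 and 12.60 with microglial apoE and 12.66, 12.68 and 12.77 with astrocytic apoE. The groups did not overlap, and the log2 fold change was -0.11 ± 0.030 (SE; fold 0.926, limma adjusted p = 0.0075).

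Ptprd and Ptprf, also below 0, did not pass. Ptprd, the partner of SLITRK3 and IL1RAPL1, was at 11.56, 11.48 and 11.61 with microglial apoE and at 11.63, 11.64 and 11.60 with astrocytic apoE (-0.07 ± 0.031 SE, adjusted p = 0.087). The third microglial apoE library overlapped the astrocytic apoE range, and without it Ptprd was called lower (-0.104, adjusted p = 0.034). Without microglial replicate 2 its log2 fold change was only -0.037 (adjusted p = 0.38). It was also called lower with median centring (adjusted p = 0.033) and with the G+C and length trend removed (adjusted p = 0.034). Ptprf had a log2 fold change of -0.04 (95% interval -0.10 to 0.02) and was called lower with that trend removed (-0.056, adjusted p = 0.036). Against Ptprf in the same library, Ptprs was at 0.255 ± 0.005 with microglial and 0.323 ± 0.024 with astrocytic apoE (SD, n = 3; no overlap, exact permutation p = 0.1).

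**Figure D3:**
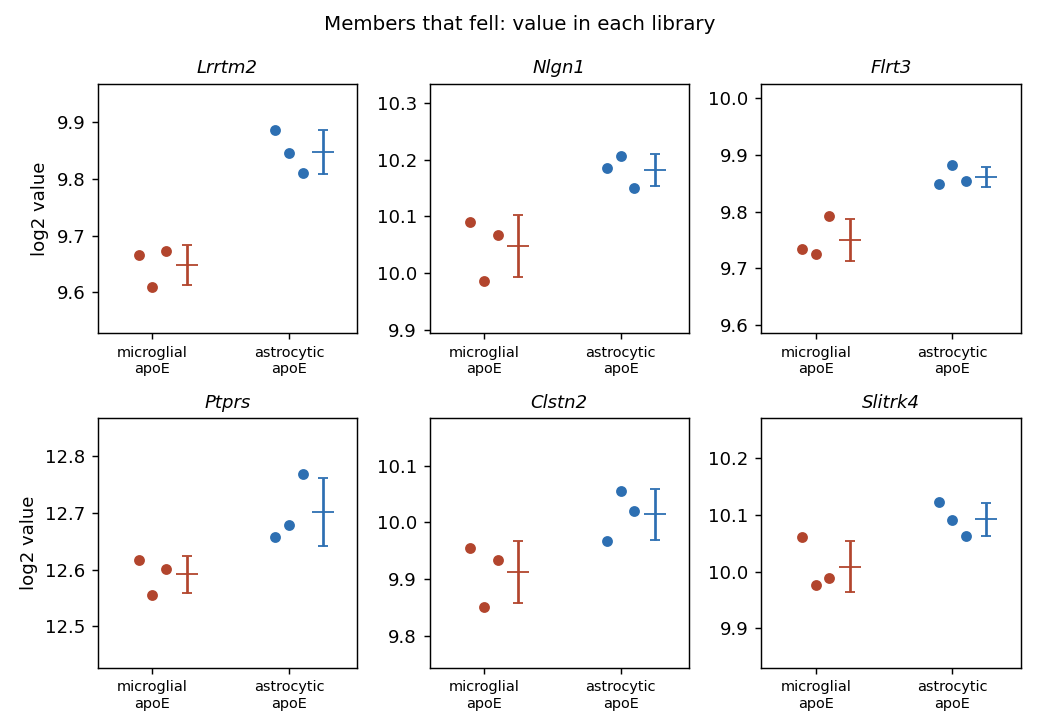
Log2 value of the 6 members that fell, in each of 3 microglial apoE libraries (red, left) and 3 astrocytic apoE libraries (blue, right), with mean and SD beside the points and the same axis height in every panel. The gap between the groups is widest for Lrrtm2 and closes to nearly nothing between the nearest libraries of Slitrk4 and Clstn2.

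SLITRK proteins are postsynaptic ligands of the LAR-type phosphatases. Slitrk4 (chromosome X, 64264885 to 64276996) had log2 values of 10.06, 9.98 and 9.99 with microglial apoE and of 10.12, 10.09 and 10.06 with astrocytic apoE. The nearest libraries of the groups all but touched, and the log2 fold change was -0.08 ± 0.030 (SE; fold 0.944, limma adjusted p = 0.046). This call was lost under 9 of 13 alternatives, with adjusted p = 0.017 to 0.66 over all of them, and the log2 fold change was -0.017 with the G+C and length trend removed. Slitrk5, at 10.33 ± 0.04 with microglial and 10.41 ± 0.02 with astrocytic apoE (SD, n = 3), missed the threshold (-0.08, adjusted p = 0.052) although its groups did not overlap. Slitrk5 was called lower under 5 of 13 alternatives, among them median centring (adjusted p = 0.018) and removal of the G+C and length trend (adjusted p = 0.0056). Slitrk4 minus Slitrk5 within a library was -0.32 ± 0.04 with microglial and -0.32 ± 0.02 with astrocytic apoE (SD, n = 3; exact permutation p = 0.9), so the difference between this called and this uncalled member was within the replicate spread. Slitrk1, Slitrk2 and Slitrk3, the last a ligand at inhibitory synapses, had log2 fold changes of -0.03, -0.03 and -0.005 that did not pass.

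The SALM genes and Il1rapl1, the remaining partners of the LAR-type phosphatases, did not pass. The 5 Lrfn genes had log2 fold changes of -0.03 (Lrfn4) to 0.04 (Lrfn3), with a median of 0.007. Lrfn5 was at 10.91 ± 0.01 with microglial and 10.90 ± 0.02 with astrocytic apoE (SD, n = 3; 95% interval of the difference -0.05 to 0.06). Il1rapl1 had -0.06 (-0.13 to 0.01). With the G+C and length trend removed Lrfn4 was called lower (-0.073, adjusted p = 0.0076), and Il1rapl1 was at -0.004.

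Flrt3 fell. It encodes a ligand of latrophilins that also binds UNC5 receptors (chromosome 2, 140650914 to 140671469). Its log2 value was 9.733, 9.725 and 9.792 with microglial apoE and 9.848, 9.882 and 9.853 with astrocytic apoE. The groups did not overlap (log2 fold change -0.11 ± 0.030 SE, fold 0.926, limma adjusted p = 0.0069), and the call was lost without astrocytic replicate 2 (adjusted p = 0.051). Against Flrt2 in the same library the groups overlapped (-0.64 ± 0.06 with microglial and -0.56 ± 0.06 with astrocytic apoE, SD, n = 3; exact permutation p = 0.3).

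Flrt3 sits within Macrod2 on the opposite strand, with no shared exon bases. Macrod2, added after its values were seen, fell too (-0.08 ± 0.028 SE, limma adjusted p = 0.030). Of 7 members that lie inside another gene, Lrfn1 and Lrfn4 did not pass while their hosts did: Samd4b rose (0.12 ± 0.028 SE, adjusted p = 0.0034) and Pcx, which encodes pyruvate carboxylase, fell (-0.23 ± 0.029 SE, adjusted p = 1.3e-06). The hosts of Lrrtm1 and Flrt1 (Ctnna2 and Macrod1) did not pass, and that of Lrrtm3 (Ctnna3) was too low to be tested. In all, 13 members share exon bases with another annotated gene, and of the 6 that fell these were Lrrtm2 and Nlgn1. Nlgn3, the reference for Nlgn1 above, shares the most, 3823 of its 9271 exon bases, with Gm21986 on the same strand. What this does to the level of Nlgn3 and to that comparison was not tested. The gene that shares 1229 bases with Nlgn1 on the opposite strand, A830092H15Rik, was too low to be tested.

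The latrophilins, which face FLRT proteins and teneurins, did not pass. Adgrl1 was at 12.28, 12.28 and 12.30 with microglial apoE and at 12.19, 12.25 and 12.37 with astrocytic apoE, where the spread between replicates exceeded the log2 fold change of 0.015. Adgrl2 had -0.02 (95% interval -0.07 to 0.04) and Adgrl3 had -0.05 (-0.13 to 0.03).

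The 4 SynCAM genes did not pass. Cadm1 stood at 12.55 ± 0.02 in both groups (SD, n = 3; 95% interval of the difference -0.05 to 0.06). Cadm3 was at 13.09, 13.07 and 13.10 with microglial apoE and at 13.12, 13.12 and 13.14 with astrocytic apoE. Its groups did not overlap, but the log2 fold change of -0.04 had an adjusted p of 0.26 in limma. With the G+C and length trend removed Cadm3 was called lower (-0.056, adjusted p = 0.024). Cadm2 and Cadm4 had -0.03 and -0.02.

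The calsyntenins, cadherin-related proteins, split. Clstn2 (chromosome 9, 97444395 to 98033181) fell: it had log2 values of 9.95, 9.85 and 9.93 with microglial apoE and of 9.97, 10.06 and 10.02 with astrocytic apoE. The nearest libraries lay close together, and the log2 fold change was -0.10 ± 0.032 (SE; fold 0.932, limma adjusted p = 0.023). The call was lost without astrocytic replicate 2, without microglial replicate 2 and with equal sums of linear values (adjusted p = 0.0018 to 0.15 over 13 alternatives). Clstn1 and Clstn3 had 0.03 and 0.05 and did not pass, but both were called higher without astrocytic replicate 3 (adjusted p = 0.047 and 0.032). Clstn2 minus Clstn1 within a library was -3.62 ± 0.03 with microglial and -3.49 ± 0.07 with astrocytic apoE (SD, n = 3; no overlap, exact permutation p = 0.1).

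Each of the 6 members that fell was set in this way against the highest other member of its family, a comparison chosen after the values were seen. The groups did not overlap in 4 pairs (those of Lrrtm2, Nlgn1, Ptprs and Clstn2), and the exact p adjusted over the 6 pairs was 0.15 for each of these. The 6 members were taken because they fell in these same libraries, and no exact p could be under 0.1. The pairs are thus descriptions and no separate support for the calls. Nor do they remove a trend along G+C content where the genes of a pair differ in it, such as Lrrtm2 and Lrrtm1. Ptprs (60.3%) and Ptprf (58.1%), and Flrt3 (42.2%) and Flrt2 (41.8%), lay closer. What remains of the trend within a pair was not tested.

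For the 29 members that did not pass, the 95% intervals of the log2 fold change lay within -0.14 and 0.12. These intervals come from transformed values. The median SD within a group was 0.0415 for the 3 members with a mean of 6 to 8, where counting alone would give 0.1211 for genes of that level if the linear value were a count. It was 0.049 for the 9 members with a mean of 8 to 10, against 0.062 from counting, so the intervals of members at both levels may be too narrow. Lrrtm2, Flrt3 and Clstn2, which fell, are among the members at 8 to 10. Their standard errors and adjusted p-values may thus be too small as well. The counting values are medians over all tested genes of a level, and the members may lie elsewhere within it. For the 15 members at 10 to 12 the median SD was 0.039, against 0.035 from counting. For the 8 members at 12 to 14 it was 0.044, against 0.019 from counting.

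Replicates of a group differed along the base composition of the members. Across the 35 members the deviation of astrocytic replicate 3 from its group mean correlated with the G+C content of the longest transcript at r = 0.81, and that of astrocytic replicate 1 at r = -0.70. Over 14550 tested genes with a G+C value the same correlations were 0.46 and -0.34. With microglial apoE, replicate 2 lay below its group mean in 26 of 35 members (r = 0.52 with G+C, and 0.20 over all genes), and replicate 3 had r = -0.38 (-0.21 over all genes). The points are genes of 1 library and share its preparation, so no p is given. Member G+C content ran from 34.7% (Slitrk4) to 65.6% (Lrfn4), and across members it correlated with the log2 fold change at Pearson r = 0.34 and Spearman rho = 0.33, while gene span did not (r = -0.01). With the G+C and length trend removed from each library, 11 members fell and 0 rose (30.1% of all genes called), with Slitrk4 no longer among them. Without astrocytic replicate 3, 7 fell and 2 rose (30.2% of all genes called), without astrocytic replicate 2, 3 fell and 0 rose (17.0%), and without microglial replicate 2, 4 fell and 0 rose (21.6%). Without astrocytic replicate 1, 5 fell and 0 rose (17.5%). Without microglial replicate 1 (19.0%) or 3 (19.3%), 6 fell and 0 rose. Lrrtm2, Nlgn1 and Ptprs were called lower under all 13 alternatives.

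**Figure D4:**
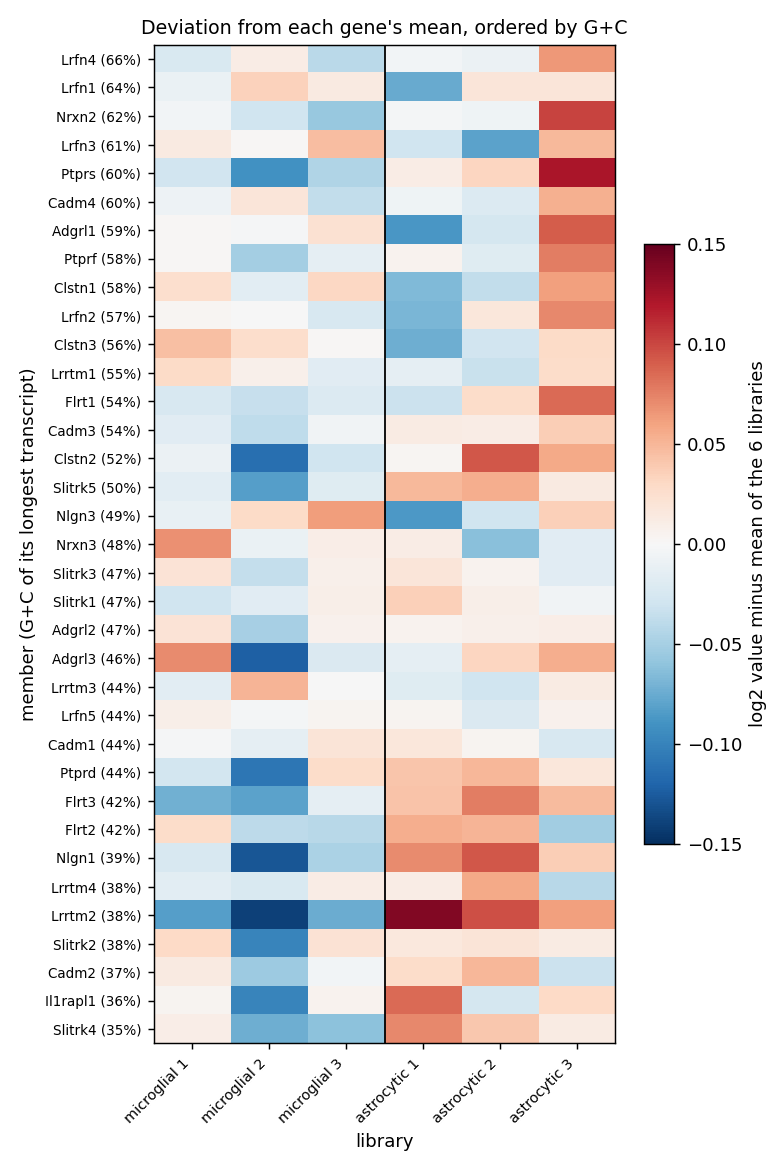
Log2 value minus the mean of the 6 libraries (colour) for each member (rows, G+C content of the longest transcript falling from top to bottom) and library (columns, microglial apoE left and astrocytic apoE right of the line). Astrocytic replicate 3 is red in the upper, G+C-rich rows and paler below, microglial replicate 2 is blue in many lower rows, and Lrrtm2 is blue in every microglial and red in every astrocytic apoE library.

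Of 122 tested genes in 5 lists of partners and regulators, 16 rose and 27 fell (35.2%, beside 17.1% of the members and 24.9% of all genes). The lists were not tested as sets, and these shares are descriptions.

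Secreted organizers and glypicans, which bridge or bind the adhesion proteins, had 4 of 23 tested genes higher and 9 lower (median log2 fold change -0.04). The complement-like C1ql1 (-0.36 ± 0.028 SE) and the matrix protein gene Sparcl1, hevin, which astrocytes secrete (-0.33 ± 0.026 SE), fell. Thrombospondin 1 (Thbs1, 0.27 ± 0.031 SE) and the glypican Gpc4 (0.24 ± 0.032 SE), products of astrocytes that promote synapses, rose. The astrocyte markers of the same libraries had a median of -0.33 and their part in these values was not tested.

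Among 54 other surface partners 5 rose and 9 fell (25.9%, close to the share of all genes; median -0.04). The leading genes were Igsf11, a homophilic adhesion protein (-0.23 ± 0.031 SE), the co-receptor Il1rap, which also binds PTP-delta (0.18 ± 0.030 SE), the ephrin receptor Ephb6 (-0.18 ± 0.032 SE) and the FLRT receptor Unc5b (0.16 ± 0.030 SE). Of 23 scaffold genes 2 rose (Dlg1 and Ppfia1, 0.15 and 0.10) and 2 fell (Magi1 and Dlg2, -0.12 and -0.10), all of them partners beneath the membrane.

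Adhesion proteins are shed from the surface by proteases. Of 12 tested genes of sheddases and gamma-secretase 1 rose and 5 fell, among them Adam10, which cleaves neuroligin 1 and neurexins (-0.12 ± 0.027 SE), Prss12, neurotrypsin (-0.13 ± 0.034 SE), Adam17 (-0.11 ± 0.031 SE) and the gamma-secretase subunit Aph1b (-0.09 ± 0.029 SE). Of 10 regulators of neurexin splicing 4 rose and 2 fell. The polypyrimidine tract binding genes went apart, with neuronal Ptbp2 lower (-0.17 ± 0.030 SE) and Ptbp1, which neurons largely silence, higher (0.15 ± 0.029 SE). Khdrbs1 (0.14 ± 0.032 SE) and Nova2 (0.14 ± 0.036 SE) also rose. Gene-level values do not show which neurexin isoforms were made.

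**Figure D5:**
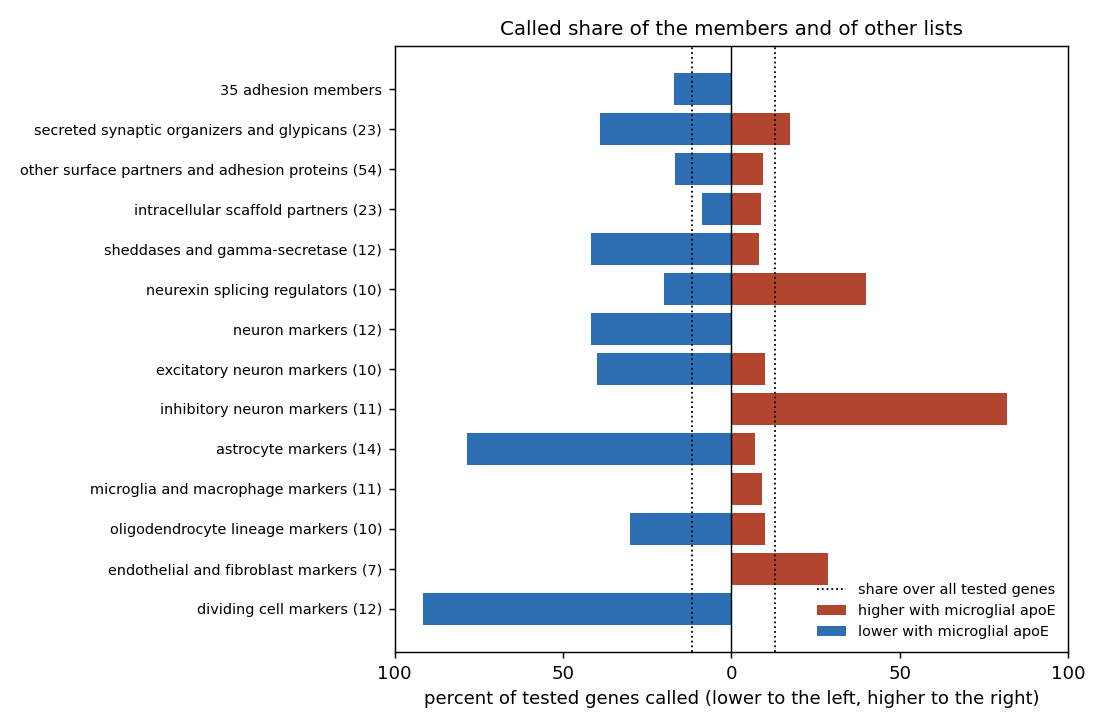
Percent of tested genes called higher (red, right) or lower (blue, left) with microglial apoE for the 35 members and each other list, with the number of tested genes in parentheses. Dotted lines give the share over all tested genes, 13.0% higher and 11.8% lower; the members show no red bar, while 11 of 12 dividing cell markers and 11 of 14 astrocyte markers were lower.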

How the data were processed

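The authors deposited 1 table per sample with a log2 value per gene symbol and no header. Per the submitters' processing notes, FastQC, HISAT2, featureCounts and DESeq2 were used with build GRCm38; versions, roles, annotation and strand were not given in the sources used here. Exactly 21031 symbols are 0 in all 6 libraries and 0 symbols only in some, and low genes are drawn to their own mean, so the log2 values look like a regularized logarithm, which shrinks both fold changes and spread of weak genes. Depth is unknown.

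The values were tested unchanged with limma 3.58.1 in R 4.3.3 (trend and robust options) on 15055 genes that reached log2 of 10 in at least 3 libraries, microglial against astrocytic apoE, without a block, and adjusted over all of them. The test was checked on simulated data, but the outcome is not given here and no call rests on it. Errors of fold changes are moderated standard errors. Tables were made in Python 3.11.15 with pandas 2.3.3 and scipy 1.17.1. Positions, exon lengths and G+C content come from GENCODE M21. Pvrl1, Pvrl3 and Mllt4 stand for Nectin1, Nectin3 and Afdn in the files.

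Members and lists were chosen with earlier results of these data known. Named genes are all members and up to 4 called genes of smallest p per pathway list. Of the marker lists, only the microglia markers under the minimum for testing are named. Others are marked in the text. Alternatives were other filters, scalings, limma options, a replicate block, each library left out and, chosen after the values were seen, removal of a spline trend on G+C content and transcript length (96.6% of tested genes had a value).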

Additional observations from a re-analysis of the deposited data

How the results depend on the processing

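The count of 6 members called was 11 with the G+C and length trend removed and 3 to 9 when 1 library was left out (3 without astrocytic replicate 2), and 4 to 9 under the other alternatives. The members' median log2 fold change of -0.03 was -0.049 with median centring (all tested genes -0.019), -0.017 with equal sums (all 0.013), -0.017 with the G+C and length trend removed (all -0.0063), and -0.032 to -0.018 when 1 library was left out. Of the partner genes, 28 to 49 were called when 1 library was left out, against 43. The cause was not tested. Of 455 values of single members under 13 alternatives, 13 lost and 15 gained a call, and 24 uncalled values near 0 changed sign; no called value did. Same-numbered libraries correlated in their deviations from the group means at 0.039, -0.122 and -0.186. These values show no pairing by number. They cannot exclude it, since each group has only 3 libraries and their deviations also followed G+C content. With a replicate block 5 members were called (Slitrk4 lost, 3387 genes in all). A pseudocount was not tried, since the values are logarithms. Groups of 3 libraries and an unknown depth limit what small differences can be resolved.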
